A study of Mus musculus with 6 samples.

Results

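The CLEC genes are the part of the C-type lectin superfamily that is named by number. They were taken as every gene of the count table whose mouse symbol begins with Clec and a digit, except Clec10a, which gave 30 genes of the 19790 in the table. RNA was sequenced from gWAT, the gonadal depot of visceral white fat that lies beside the male reproductive tract, of 6 wild-type C57BL/6 mice. A normal chow diet (NCD) had been given to 3 of them and a high-fat diet (HFD) to the other 3, both for 8 weeks, and no transgene, deletion or drug was used in either group. The labels place the start of feeding at 6 weeks of age, and the methods of the study give male mice of 8 weeks of age. The 3 libraries of a diet are described as biological replicates and each is taken here as 1 mouse, with a total count between 49575113 and 66360046.

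A C-type lectin domain is a protein fold that in many members binds sugars, often with the help of calcium, and in others binds proteins, lipids or crystals. Myeloid CLEC receptors work as switches on the cell surface. Activating receptors carry a tyrosine motif in their own tail or pair with an adaptor such as the Fc receptor gamma chain (Fcer1g) or DAP12 (Tyrobp), which recruit the kinase Syk and then Card9 and NF-kB. Inhibitory receptors carry a motif that recruits the phosphatases Ptpn6 and Ptpn11. In obese fat, macrophages gather around dying adipocytes, and Clec4e and Clec7a are known from such tissue.

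The label of the tissue was checked against marker genes. The summed level of 8 adipocyte markers, including Adipoq and Plin1, was 3615, 14747 and 19975 CPM in the NCD mice and 14292, 14284 and 10995 in the HFD mice. CPM are counts relative to the library total, here and later scaled by the trimmed mean of M values (TMM) and called scaled CPM. One library stood apart from the rest. In NCD replicate 1, 11 seminal vesicle secretory genes held 58.6% of all counts, against 11.2% and 2.3% in NCD replicates 2 and 3 and no more than 1.21e-05% in any HFD mouse. Each comparison was therefore fitted on all 6 mice and again on the 5 mice without NCD replicate 1. Of the 23 members tested on 6 mice, 17 were lowest of the NCD mice in NCD replicate 1. The 5 mice still include NCD replicate 2, at 11.2%, so the admixed RNA and the diet cannot be told apart in either fit. Since whole tissue was sequenced, fewer cells of a type and less RNA per cell cannot be told apart in any value that follows.

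The family is clustered in the genome. In the RefSeq annotation of GRCm38.p6, 24 of the 30 genes lie on chromosome 6. The Dectin-2 cluster holds 9 of them, from Clec4a1 to Clec4e, within chr6:122921848-123289871. The Clr and Dectin-1 cluster holds 12 of them, from Clec2i to Clec7a, within chr6:128887587-129472785. Promoter windows from 250 bases before to 50 bases after the RefSeq start of transcription were found for 25 members, in 28 windows. A set of 4 windows is shown, for receptors whose levels the results turn on, on the strand of the gene and 5′ to 3′, with capitals for each GAGGAA, the core letters that PU.1 and other ETS factors read, or for TTCCTC where it lies on the other strand. PU.1 is the ETS factor that myeloid cells need to form. Clec4d and Clec4a1 stand for the Dectin-2 cluster and Clec12a and Clec7a for the Dectin-1 side, at chr6:123261857-123262156, chr6:122921598-122921897, chr6:129349994-129350293 and chr6:129472730-129473029 of GRCm38.p6. Clec7a has 2 windows 6 bases apart, of which the one with the lower coordinates is shown.
Clec4d, plus strand: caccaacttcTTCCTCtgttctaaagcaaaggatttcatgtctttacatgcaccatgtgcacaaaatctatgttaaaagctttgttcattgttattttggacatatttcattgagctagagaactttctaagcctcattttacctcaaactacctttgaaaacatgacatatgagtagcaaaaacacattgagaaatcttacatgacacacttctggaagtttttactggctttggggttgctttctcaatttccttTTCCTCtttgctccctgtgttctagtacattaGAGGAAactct
Clec4a1, plus strand: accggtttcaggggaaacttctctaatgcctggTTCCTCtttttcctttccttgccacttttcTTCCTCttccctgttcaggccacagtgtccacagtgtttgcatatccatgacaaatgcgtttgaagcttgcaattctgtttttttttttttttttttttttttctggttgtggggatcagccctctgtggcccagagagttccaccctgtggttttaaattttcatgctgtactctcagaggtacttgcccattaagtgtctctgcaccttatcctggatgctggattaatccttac
Clec12a, plus strand: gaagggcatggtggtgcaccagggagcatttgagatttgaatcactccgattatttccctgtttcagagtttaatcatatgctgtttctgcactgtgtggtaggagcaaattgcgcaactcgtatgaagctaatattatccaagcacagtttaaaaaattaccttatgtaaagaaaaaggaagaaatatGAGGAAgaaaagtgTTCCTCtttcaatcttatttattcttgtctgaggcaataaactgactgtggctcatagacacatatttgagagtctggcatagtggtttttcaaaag
Clec7a, minus strand: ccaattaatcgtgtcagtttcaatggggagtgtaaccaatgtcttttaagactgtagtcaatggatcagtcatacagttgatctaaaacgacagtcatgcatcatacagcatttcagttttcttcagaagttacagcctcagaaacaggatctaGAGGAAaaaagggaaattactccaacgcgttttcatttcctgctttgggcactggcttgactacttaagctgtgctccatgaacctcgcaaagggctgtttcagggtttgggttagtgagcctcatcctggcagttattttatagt

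The printed windows held 3, 2, 2 and 1 matches, in that order, and the Clec4a2 window held 0. GAGGAA on either strand was present in 15 of the 28 member windows (53.6%) and in 28.3% of all 32851 promoter windows of the table. Among the activating receptors and those of the DCIR and Clec12 kind, grouped as below, it was present for 9 of 13 genes with a window. Among the other members it was present for 5 of 12. The AP-1 letters TGANTCA were in 5 member windows (17.9%, against 7.81% of all windows), and the C/EBP letters TTGCNNAA in 6 (21.4%, against 10.8%). The STAT letters TTCNNNGAA were in 1 (3.57%, against 8.3%), the NF-kB motif in 4 (14.3%, against 20.7%) and the TATA box letters TATAAA in 8 (28.6%, against 13.6%). Both strands were searched for each. Matches to different letters may overlap, and a STAT match can hold a GAGGAA. Neighbouring family members share ancestry and several windows belong to 1 gene, so these shares are a description of letters and not a test.

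Of the 30 members, 23 had enough counts to be tested. Of these, 16 would have passed the filter on low counts from the NCD mice alone. The other 7 (Clec4a4, Clec4d, Clec4e, Clec2g, Clec2e, Clec12b and Clec1b) passed only with HFD mice counted, so whether they were tested depended on their HFD values. A higher level on HFD was not required for each of them, as Clec2e was highest in NCD replicate 1. In all, 5 members, Clec4a1, Clec4a2, Clec4a3, Clec12a and Clec7a, rose on HFD at an adjusted p under 0.05 (edgeR quasi-likelihood test, adjusted over all 15241 genes), where 5.58% of all genes tested rose. All 5 are among the 16. No member fell, where 1.90% of all genes fell. At an unadjusted p under 0.05, 15 of the 23 were higher and 0 lower in edgeR, beside 16.0% of all genes higher, and DESeq2 and voom also called 0 members lower. In 14 of the 23, and in 10 of the 16, every HFD mouse lay above every NCD mouse, which held for 20.5% of all genes. Counts over the 23 include the 7 whose testing depended on HFD values, which can raise these counts. The log2 difference was above 0 for 22 of 23, with a median of 1.88 against -0.08 over all genes, and over the 16 the median was 1.38.

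Without NCD replicate 1, 7 of the 24 members tested rose, where 10.7% of the 15510 genes tested rose, and 0 fell, where 10.1% fell. At an unadjusted p under 0.05, 15 members were higher and 0 lower in that fit. The 5 genes named above remained and Clec4d and Clec2d were added. The median log2 difference of the members was 1.76 against 0.02 over all genes. With NCD replicate 2 or NCD replicate 3 left out of the 5 mice, 1 NCD mouse remained. It is assumed to vary like the HFD mice, so the spread on NCD was not measured there. The log2 difference was then above 0 for 23 and 22 of the 25 members tested. The calls with all 6 mice rest on every other library: leaving out any 1 mouse other than NCD replicate 1 left none of the 5 past the threshold, with log2 differences from 1.77 to 3.07 and adjusted p between 0.0578 and 0.145 in edgeR. Over all genes those fits called only 2 to 7 genes, so the loss was not particular to these members.

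**Figure D1:**
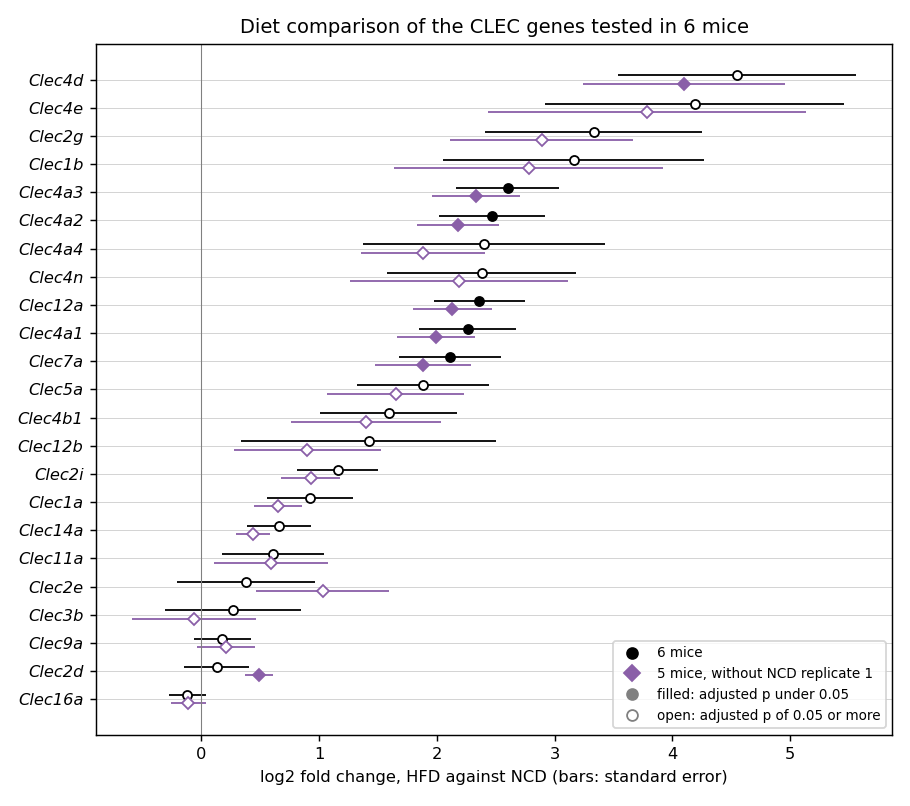
Log2 difference of HFD minus NCD for each tested CLEC gene, with bars of 1 standard error, from the fit on 6 mice (circles) and the fit without NCD replicate 1 (diamonds), filled where the adjusted p is under 0.05. The DCIR genes, Clec12a, Clec7a and Clec4d sit well to the right of 0, and Clec16a, Clec9a and Clec3b sit near 0.

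Of the 5 members that rose, 4 were receptors of the DCIR and Clec12 kind. Clec4a2 encodes DCIR, a receptor with an inhibitory motif found on dendritic cells and macrophages, and Clec4a1, Clec4a3 and Clec4a4 are its mouse relatives. With Clec12a and Clec12b, both inhibitory receptors, they form a group of 6 tested genes, of which 4 rose in the fit on 6 mice and the same 4 in the fit on 5. Clec4a3 was at 8.22, 22.8 and 12.7 scaled CPM in NCD replicates 1 to 3 and at 68, 77.3 and 120 in HFD replicates 1 to 3. The lowest HFD mouse was far above the highest NCD mouse. HFD and NCD differed by a log2 value of 2.60 ± 0.439 (SE, edgeR adjusted p = 0.0289), and 2.33 without NCD replicate 1 (edgeR adjusted p = 0.0143).

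Clec4a2 was at 4.78, 14.2 and 8.84 scaled CPM on NCD and 59.4, 34.5 and 61.1 on HFD. The diets did not overlap and HFD replicate 2 was the lowest of its group. Its log2 difference was 2.47 ± 0.452 (SE, edgeR adjusted p = 0.0343). Clec4a1 was at 8.89, 22.7 and 15.8 scaled CPM on NCD and 52.8, 73.7 and 101 on HFD, again without overlap. Its log2 difference was 2.26 ± 0.410 (SE, edgeR adjusted p = 0.0337). Without NCD replicate 1 the log2 differences of Clec4a2 and Clec4a1 were 2.18 and 1.99 (edgeR adjusted p = 0.0140 and 0.0152).

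Clec12a encodes MICL, an inhibitory receptor of myeloid cells that recognises uric acid crystals. Its level was 12.7, 30.4 and 18 scaled CPM on NCD and 138, 79.8 and 97.3 on HFD. Every HFD mouse was above every NCD mouse, and HFD replicate 1 was the highest. On the log2 scale the difference was 2.36 ± 0.387 (SE, edgeR adjusted p = 0.0271), and 2.13 without NCD replicate 1 (edgeR adjusted p = 0.0136). The mean went from 20.4 ± 9.09 to 105 ± 29.7 scaled CPM (SD, n = 3 mice each).

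The other 2 genes of that group did not pass the test. Clec4a4, a DCIR relative of dendritic cells, had 0, 30 and 16 counts on NCD and 107, 75 and 103 on HFD (log2 difference 2.40 ± 1.03 SE, edgeR adjusted p = 0.182), without overlap of the diets. Clec12b had 0, 17 and 34 counts on NCD and 37, 49 and 82 on HFD (log2 difference 1.42, edgeR adjusted p = 0.408). Their counts were low, and the lowest NCD value of each was 0. Clec4a2 transcripts share a stretch of 301 bases with Clec4a4 and of 436 bases with Clec4b1 at an identity of at least 95%, and Clec12a shares up to 101 bases with transcripts of other genes. The sources used here do not say how reads matching several genes were counted, so the split of reads among these genes is uncertain.

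**Figure D2:**
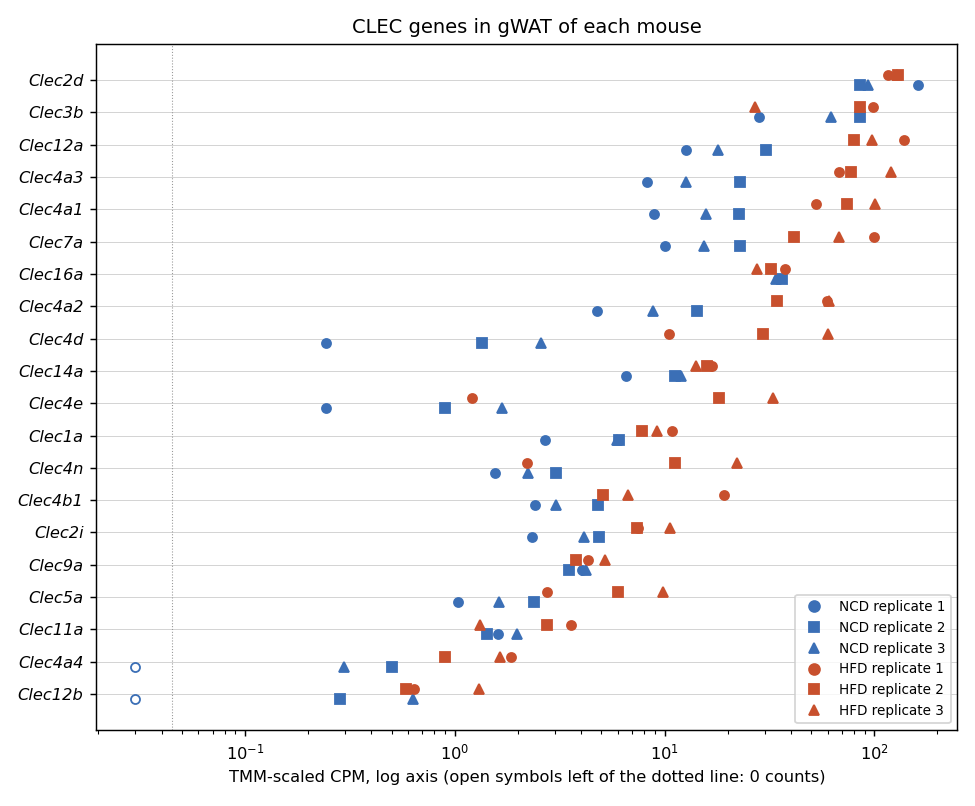
Level of CLEC genes in each of the 6 mice in scaled CPM on a log axis, with blue points for NCD, red points for HFD, a shape for each replicate number and open points at the left for 0 counts. The HFD points of Clec4a1, Clec4a2, Clec4a3, Clec12a and Clec7a lie above all NCD points, and those of Clec4e and Clec4n spread widely.

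Activating receptors were the other large group, with 8 genes tested of 9, of which 1 rose in the fit on 6 mice and 2 in the fit on 5. Clec7a encodes Dectin-1, the beta-glucan receptor that signals through Syk and Card9. It was at 10, 22.8 and 15.5 scaled CPM on NCD and 100, 41.5 and 68.2 on HFD. The diets did not overlap, and HFD replicate 1 was the highest. The log2 difference was 2.11 ± 0.431 (SE, edgeR adjusted p = 0.0428), and 1.88 without NCD replicate 1 (edgeR adjusted p = 0.0292). Testing all genes without the filter on low counts ended the call on 6 mice.

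Clec4d encodes MCL, a partner of Mincle in the recognition of mycobacterial glycolipids. It had 8, 81 and 139 counts on NCD and 607, 2458 and 3754 on HFD, which is 0.244, 1.35 and 2.59 against 10.5, 29.5 and 59.8 scaled CPM. No HFD mouse came near the NCD range, yet the HFD mice differed among themselves several-fold. The log2 difference, 4.55 ± 1.01 (SE), just missed the threshold on 6 mice (edgeR adjusted p = 0.05005), and it was 4.10 without NCD replicate 1 and past it there (edgeR adjusted p = 0.0271).

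Clec4e, Clec4n and Clec5a shared an order among the HFD mice. Clec4e encodes Mincle, which binds mycobacterial cord factor and a protein released by dying cells. It was at 0.244, 0.903 and 1.67 scaled CPM on NCD and 1.21, 18.2 and 32.9 on HFD. HFD replicate 1 lay inside the NCD range, and HFD replicates 2 and 3 were 15 and 27.1 times as high as it. The log2 difference was 4.19 ± 1.27 (SE, edgeR adjusted p = 0.0921).

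Clec4n, which encodes Dectin-2, a receptor for fungal mannans, was at 1.55, 3.03 and 2.23 scaled CPM on NCD and 2.2, 11.2 and 22.2 on HFD. HFD replicate 1 again lay inside the NCD range (log2 difference 2.38 ± 0.803 SE, edgeR adjusted p = 0.116). Clec5a, which encodes the DAP12-linked receptor MDL-1, was at 1.04, 2.38 and 1.62 scaled CPM on NCD and 2.74, 6.02 and 9.84 on HFD. Here the diets did not overlap, with HFD replicate 1 the nearest to NCD (log2 difference 1.88 ± 0.559 SE, edgeR adjusted p = 0.0895). None of the 3 passed without NCD replicate 1 either, with edgeR adjusted p between 0.0969 and 0.147.

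Leaving out HFD replicate 1 alone did not bring these genes past the threshold (edgeR adjusted p = 0.0652 for Clec4e, 0.0586 for Clec4n and 0.0841 for Clec5a). Leaving it out as well as NCD replicate 1 was an alternative added after its low values had been seen. On the remaining 4 mice the log2 differences were 4.31 for Clec4e, 2.66 for Clec4n, 1.98 for Clec5a and 3.13 for Clec2g. Leaving out the HFD mouse in which these genes were lowest raises such differences by itself, so no call is read from them. Clec4b1, a relative of Dectin-2 described on dendritic cells, had another order, at 2.4, 4.83 and 3.03 scaled CPM on NCD and 19.2, 5.11 and 6.7 on HFD, with HFD replicate 1 the highest (log2 difference 1.59, edgeR adjusted p = 0.136).

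Over the tested members, HFD replicate 1 was the lowest HFD mouse for 8 (Clec5a, Clec4a1, Clec4a3, Clec4n, Clec4d, Clec4e, Clec2g and Clec2d) and the highest for 10, among them Clec7a, Clec12a, Clec4a4 and Clec4b1. Of 8 neutrophil markers, 6 were also lowest of the HFD mice in HFD replicate 1, and Elane was highest there. Their summed level was 0.396, 2.17 and 1.88 scaled CPM on NCD and 4.8, 88.3 and 274 on HFD, with most of it from S100a8, S100a9 and Cxcr2, and S100a9 was at 0.416, 50.7 and 164 in the HFD mice. Camp and Elane had lower means on HFD than on NCD. Of these markers 4 were tested, and 0 rose in edgeR (3 at an unadjusted p under 0.05), against 4 of 8 in DESeq2 and 1 of 4 in voom. Ly6g, a defining neutrophil marker, had no count in HFD replicate 1 and 7 and 11 counts in HFD replicates 2 and 3. The summed level of 10 macrophage markers had another order, 399, 943 and 843 on NCD and 4451, 2343 and 2870 on HFD, with HFD replicate 1 the highest. That order was not shared by every marker: 6 of the 10 were highest in HFD replicate 1, while Cd14 (39.9, 74.7 and 124 on HFD) and Fcgr1 (65.4, 146 and 236) were lowest there, as Clec4e, Clec4n and Clec5a were. Of these 10 markers, 5 rose and 0 fell in edgeR, where 5.58% of all genes rose, with 0 lower at an unadjusted p under 0.05. DESeq2 and voom called 0 lower after adjustment, and voom had 1 lower at an unadjusted p under 0.05. The mean was higher on HFD for 9 of the 10. Cd163 was the exception (log2 difference -0.07, and -0.38 without NCD replicate 1), and Mertk changed little (0.23, edgeR adjusted p = 0.545). The part of either cell type in the CLEC values was not tested.

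**Figure D3:**
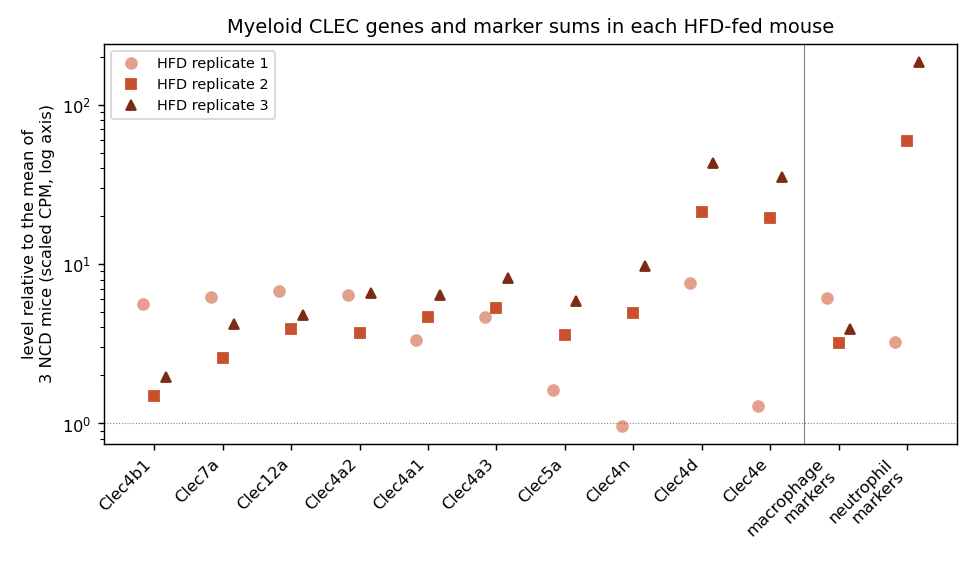
Level of myeloid CLEC genes, and summed level of marker lists, in each of the 3 HFD mice relative to the mean of the 3 NCD mice (ratio of scaled CPM, log axis, dotted line at the NCD mean). Clec4e, Clec4n, Clec4d and the summed neutrophil markers are lowest in HFD replicate 1, and Clec7a, Clec12a and the summed macrophage markers are highest there.

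Counts of 7 receptors were also divided by the summed counts of the 10 macrophage markers in the same library, a ratio that needs no scaling between mice. In HFD replicate 1 the largest parts of that sum were Lyz2 (85059 counts) and Lgals3 (75615 counts), so the ratios there rest mostly on these markers. Per 1000 macrophage-marker counts, Clec7a had 25.2, 24.2 and 18.4 on NCD and 22.5, 17.7 and 23.8 on HFD. The ranges overlapped, with a log2 difference of -0.08 (exact two-sided permutation test, p = 0.5). Clec12a had 31.7, 32.2 and 21.4 on NCD and 30.9, 34 and 33.9 on HFD (log2 difference 0.24, exact permutation p = 0.3). Clec4a2 had 12, 15.1 and 10.5 on NCD and 13.4, 14.7 and 21.3 on HFD (log2 difference 0.38, exact permutation p = 0.3). The diets overlapped for all 3 genes on this scale, but this depended on the markers used. Relative to Csf1r alone the HFD mice lay above the NCD mice for all 3 genes, with log2 differences of 0.45 for Clec7a, 0.77 for Clec12a and 0.91 for Clec4a2.

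The ratio of Clec4d was 0.61, 1.44 and 3.07 on NCD and 2.36, 12.6 and 20.9 on HFD, a log2 difference of 2.62 (exact permutation p = 0.2). Clec4e had 0.61, 0.958 and 1.99 on NCD and 0.273, 7.78 and 11.4 on HFD, a log2 difference of 1.46 (exact permutation p = 0.4). For Clec4n and Clec5a the log2 differences were -0.29 and -0.40 (exact permutation p = 1 and 0.9), and both were lowest of all 6 mice in HFD replicate 1, at 0.495 and 0.615. Without HFD replicate 1 they were 0.92 and 0.35, and with Csf1r alone as the macrophage marker they were 0.24 and 0.13. With 3 mice against 3 the smallest p is 0.1, so none of the 7 could pass 0.05.

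**Figure D4:**
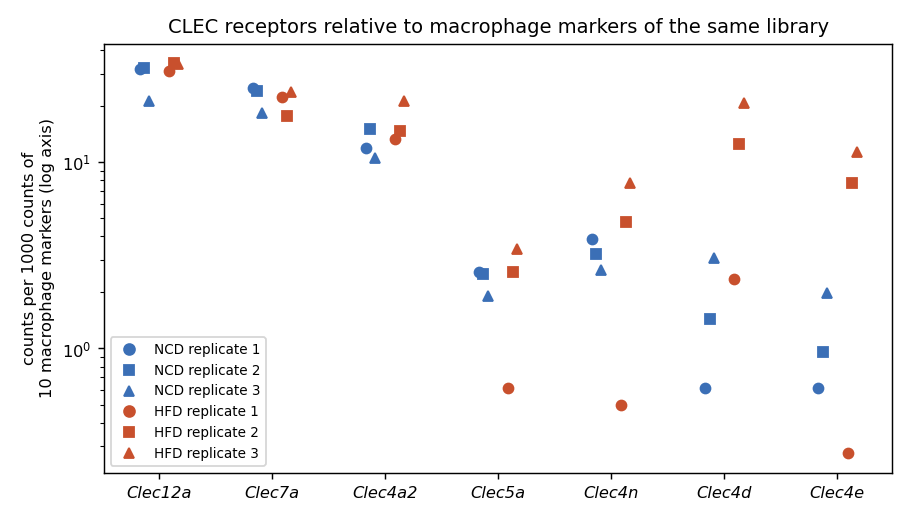
Counts of 7 CLEC receptors per 1000 counts of 10 macrophage markers in each mouse, on a log axis. The diets overlap for Clec7a, Clec12a and Clec4a2, and for Clec4d and Clec4e HFD replicates 2 and 3 lie above the NCD mice.

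The last members of the activating group, Clec9a and Clec1b, had few counts or no shift. Clec9a encodes DNGR-1, the receptor of cross-presenting dendritic cells for actin from dead cells. Its level was 4.02, 3.51 and 4.24 scaled CPM on NCD and 4.32, 3.79 and 5.2 on HFD, with overlapping diets (log2 difference 0.18, edgeR adjusted p = 0.656). Clec1b encodes the platelet receptor CLEC-2, and had 0, 4 and 0 counts on NCD and 11, 14 and 24 on HFD (edgeR adjusted p = 0.125). Clec9a and Clec1b transcripts share 185 bases, so their reads may not be fully separable. The summed level of 8 platelet markers was 13.3, 26.5 and 25.8 scaled CPM on NCD and 46.9, 74.9 and 146 on HFD, and that of 10 dendritic cell markers was 64.9, 74.6 and 59.3 against 261, 131 and 171. Pf4 and Ppbp carried most of the first sum's difference, and 5 of its 8 markers had a higher mean on HFD. Itgax and Irf8 carried most of the second, in which 8 of 10 had a higher mean on HFD, 1 rose in edgeR (Irf8), and Itgae and Xcr1 had lower means. Whether either moved the values of these genes was not tested. Clec4b2 had no count in any mouse.

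Many signalling partners of the myeloid receptors rose as well. Of 22 partner genes, all tested, 10 rose and 0 fell in the edgeR fit on 6 mice, where 5.58% of all genes rose and 1.90% fell. In edgeR 2 were lower at an unadjusted p under 0.05, and DESeq2 and voom called 1 and 2 lower. The median log2 difference was 1.24. The 10 were the adaptors Fcer1g and Tyrobp, the kinases Syk and Lyn, the exchange factors Vav1 and Vav3, the phospholipase Plcg2, the NF-kB subunit Rel and the phosphatases Ptpn6 and Inpp5d. Syk was at 14.5, 35.1 and 31.9 scaled CPM on NCD and 231, 134 and 179 on HFD (log2 difference 2.74, edgeR adjusted p = 0.0235). Fcer1g went from 18.2, 42.7 and 37.6 to 153, 163 and 252 (log2 difference 2.53, edgeR adjusted p = 0.0249), and Tyrobp from 20, 41.4 and 31.2 to 254, 138 and 198 (log2 difference 2.67, edgeR adjusted p = 0.0219). The HFD mice did not overlap the NCD mice for any of the 3. Ptpn6, the phosphatase of the inhibitory arm, had a log2 difference of 1.85 (edgeR adjusted p = 0.0240). Without NCD replicate 1, 14 partners rose and 1 fell, where 10.7% of all genes rose and 10.1% fell. With the replicate number as a block in the fit on 6 mice, 0 partners rose, where only 5 of all genes rose.

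Of 9 genes for protein ligands or counter-receptors of CLEC proteins, 2 rose and 0 fell in edgeR, where 5.58% of all genes rose and 1.90% fell. At an unadjusted p under 0.05 in edgeR 0 were lower, and DESeq2 and voom called 0 lower. Pdpn encodes podoplanin, the ligand of CLEC-2, and was at 22.2, 19.6 and 19.6 scaled CPM on NCD and 38.1, 117 and 100 on HFD. The NCD mice lay close together and HFD replicate 1 was nearest to them (log2 difference 2.06 ± 0.418 SE, edgeR adjusted p = 0.0425). Anxa4, an annexin, had a log2 difference of 1.16 (edgeR adjusted p = 0.0325).

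No member of endothelium, liver sinusoids or Kupffer cells passed the test in edgeR, beside 2 at an unadjusted p under 0.05, 0 adjusted in DESeq2 and 1 in voom. Clec14a encodes an endothelial receptor of the matrix protein multimerin-2, and was at 6.52, 11.2 and 12 scaled CPM on NCD and 16.9, 15.9 and 14.1 on HFD (log2 difference 0.66, edgeR adjusted p = 0.168). Clec1a, also of endothelium and dendritic cells, was at 2.68, 6.05 and 5.94 on NCD and 10.9, 7.79 and 9.17 on HFD (log2 difference 0.92, edgeR adjusted p = 0.156). For both, every HFD mouse was above every NCD mouse. The summed level of 10 endothelial markers was 337, 924 and 1042 scaled CPM on NCD and 1235, 1072 and 1104 on HFD, lowest in NCD replicate 1. In edgeR 0 of the 10 rose or fell (0 at an unadjusted p under 0.05), and DESeq2 and voom called 0 and 1. Without NCD replicate 1 the log2 differences were 0.44 for Clec14a and 0.65 for Clec1a (edgeR adjusted p = 0.0830 and 0.0754). Clec4f, the Kupffer cell receptor, had 4 counts in HFD replicate 1 and none in the other mice, and Clec4g, of liver sinusoidal endothelium, had at most 11 counts in any mouse. Neither was tested.

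The Clr genes of the natural killer gene complex encode ligands of the NKR-P1 receptors of natural killer cells. Of the 7 members named Clec2 with a letter, 4 were tested on 6 mice, of which 0 rose in edgeR (2 at an unadjusted p under 0.05, and 2 of 7 in DESeq2 and 3 of 4 in voom), and 1 rose without NCD replicate 1. That gene was Clec2d, which encodes Clr-b, a broadly expressed ligand of the inhibitory receptor NKR-P1B. It was at 162, 85.2 and 93.6 scaled CPM on NCD and 116, 129 and 128 on HFD. NCD replicate 1 was the highest of all 6 mice and the other NCD mice were below every HFD mouse. The log2 difference was 0.13 (edgeR adjusted p = 0.776) on 6 mice and 0.49 ± 0.122 (SE, edgeR adjusted p = 0.0429) without NCD replicate 1. That call was lost with any 1 further mouse left out except HFD replicate 1, and without the filter on low counts.

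Other Clr genes were lower in level. Clec2i was at 2.34, 4.87 and 4.13 scaled CPM on NCD and 7.44, 7.35 and 10.6 on HFD (log2 difference 1.16 ± 0.344 SE, edgeR adjusted p = 0.0894), without overlap. Clec2g had 0, 8 and 2 counts on NCD and 22, 58 and 54 on HFD (log2 difference 3.33, edgeR adjusted p = 0.0778). Clec2e had 8 to 17 counts on NCD and 24 to 26 on HFD (edgeR adjusted p = 0.687). Clec2m had no count in any NCD mouse and 12, 2 and 11 on HFD, Clec2f had at most 3 counts in any mouse, and Clec2l at most 13. None of these 3 was tested on 6 mice, and without NCD replicate 1 Clec2m was tested and did not pass (edgeR adjusted p = 0.106). A summed level of 11 natural killer, T and B cell markers lay between 29.1 and 46.2 scaled CPM in all 6 mice. Of these 11, 1 rose in edgeR (Gzma, log2 difference 1.28, edgeR adjusted p = 0.0494) and 0 fell, with a median log2 difference of -0.10. Every HFD mouse lay above every NCD mouse for 2 of them and below for 0.

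The secreted and intracellular members did not pass the test. Clec3b encodes tetranectin, a plasminogen-binding protein of plasma and matrix, and was at 28.1, 85.1 and 62 scaled CPM on NCD and 98.4, 85.4 and 27 on HFD. The lowest and the highest value were both in HFD mice (log2 difference 0.27 ± 0.580 SE, edgeR adjusted p = 0.782). Clec11a, a growth factor of bone and marrow stroma, had a log2 difference of 0.61 (edgeR adjusted p = 0.383). Clec16a, an endolysosomal protein of mitophagy without a typical lectin domain, was at 34.6, 36.1 and 34.1 scaled CPM on NCD and 37.3, 32 and 27.5 on HFD (log2 difference -0.12, edgeR adjusted p = 0.645). Clec18a had no count in any mouse. A count of 0 allows up to 3 counts, which is 0.0359 to 0.0912 scaled CPM in these libraries.

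Levels of different members were compared per kilobase of exon, as scaled FPKM (scaled CPM divided by exon length). On NCD, Clec2d (93.7 ± 34.7, SD, n = 3) and Clec3b (58.9 ± 28.9) led, and the next were Clec4a3 (11), Clec4a1 (10.1), Clec12a (8.14) and Clec7a (7.06). Clec2d and Clec3b overlapped, and Clec3b lay above Clec4a3 in range, while most neighbours further down overlapped. On HFD, Clec2d (102 ± 5.79) and Clec3b (70.8 ± 38.4) still led, followed by Clec4a3 (66.6 ± 20.9), Clec4a1 (48.6), Clec12a (41.9), Clec7a (30.6), Clec4d (25.2) and Clec4a2 (19.8). The ranges of Clec3b and Clec4a3 then overlapped, but only through HFD replicate 3. In HFD replicates 1 to 3 Clec3b was at 99.2, 86.1 and 27.2 scaled FPKM and Clec4a3 at 51.3, 58.3 and 90.4. All 30 members together held between 0.0145% and 0.102% of the counts of a library.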

How the data were processed

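RNA-seq of gWAT from 3 NCD and 3 HFD mice was analysed, with groups and replicate numbers taken from the sample titles. The counts of HFD replicate 3 are labelled WT_HFD_4 by the submitters and were matched through the sample's description. The values deposited by the authors are raw counts of reads per gene, by NCBI gene identifier, with no normalization. Libraries were made with the TruSeq Stranded mRNA kit. The submitters' processing notes name bcl2fastq 2.20.0, Trimmomatic, HISAT2 2.1.0, StringTie 1.3.4d and DESeq2, with builds mm10 and GRCm38. For parameters, the strand setting and the counting of reads that match several genes, no source used here gives an account. Symbols came from NCBI's table for GRCm38.p6, which matched 19742 of 19790 identifiers, and the other 48 held 0.629% of counts. Clec2h, Clec2j and Clec3a were not analysed here.

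In edgeR 4.0.16 (R 4.3.3), genes were kept by filterByExpr with a count minimum of 10 and a total of at least 15. TMM factors scaled the libraries, and the quasi-likelihood test (glmQLFit, then glmQLFTest) gave p-values, which were adjusted by the Benjamini-Hochberg method across every gene kept, with 0.05 as the threshold. The filter, scaling and adjustment were repeated without NCD replicate 1, whose TMM factor was 0.496. The standard error is the log2 difference divided by the square root of F. The common biological coefficient of variation was 0.424 on 6 mice and 0.288 on 5. Exon lengths for FPKM came from GENCODE vM21 basic, and promoter windows from RefSeq (GRCm38.p6). Ratios to macrophage markers were compared with an exact permutation test (scipy 1.17.1). Alternatives were other scalings and filters, DESeq2 1.42.0, voom with quality weights (limma 3.58.1), a replicate block and each mouse left out. The procedure was tested on simulated data.

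The members and gene lists were chosen with earlier results of these data known. Every member is given, with the value of each mouse for those past the threshold, and partner and ligand genes are named where past it on 6 mice. At 49575113 to 66360046 counts per library, the spread between mice, not counting error, limits the precision except for members with few counts, and a floor of 3 counts covers counting error only. No library was treated as a duplicate: between replicates, chi-square divided by its degrees of freedom ran from 101 to 3100, far above counting noise.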

Additional observations from a re-analysis of the deposited data

How the results depend on the processing

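Of the CLEC genes, 5 rose on 6 mice in the edgeR test. The count was 12 of 28 members fitted with DESeq2, where 2100 of all 19056 genes fitted rose. It was 11 of 23 with voom, where 2823 of all 15241 genes rose. With a replicate block it was 0 of 23, where 5 of all genes rose. It ranged from 0 to 7 with each mouse left out in turn. On simulated data the share of false calls was 21.2% in DESeq2 and 4.46% in edgeR with 6 mice, and 18.0% and 7.49% with 5. Those counts were drawn with dispersions estimated by edgeR and without a library that stands apart as NCD replicate 1 does. The shares may therefore favour edgeR and need not hold for these mice. The count stayed between 4 and 6 with other scalings, filters and robust dispersions. Over all genes, 1139 passed in edgeR, 3853 in DESeq2, 5570 in voom and 12 with the replicate block, and 2 to 3234 with each mouse left out. The block rests on replicate numbers only: the deviations of same-numbered libraries correlated between -0.056 and 0.01, so the numbers do not show a pairing. On the 5 mice without NCD replicate 1, an analysis whose alternatives were chosen after seeing the data, 7 members rose in edgeR, 14 in DESeq2 and 12 with scaling by total counts, and 0 to 11 with a further mouse left out. Of all genes, 3234 passed there in edgeR and 5083 in DESeq2, and 207 to 3865 with a further mouse left out. The count of members that fell was 0 in edgeR, DESeq2 and voom.

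With scaling by total counts the median over all genes went from -0.08 to 0.445 on 6 mice and from 0.02 to 0.231 on 5. Clec16a turned to 0.38 and 0.10 under it, and was 0.00 without HFD replicate 3. With each mouse left out, Clec2d ranged from -0.04 without NCD replicate 2 to 0.49 without NCD replicate 1, and over all alternatives up to 0.77, with total counts. Clec3b was -0.18 with voom, and -0.06 to 0.66 with each mouse left out, below 0 without NCD replicate 1 (-0.06) or HFD replicate 1 (-0.05). On the 5 mice it was 0.15 with total counts and -0.39 to 0.33 with a further mouse left out, and 0.18 without NCD replicate 2. For the ratios to macrophage markers, taking Csf1r alone gave 0.45 for Clec7a, 0.24 for Clec4n and 0.13 for Clec5a. With each mouse left out, they ranged from -0.22 to 0.05, from -1.06 to 0.92 and from -0.89 to 0.35. The cause of these changes was not tested. Depth limits what can be said of the members with few counts, Clec1b, Clec2e, Clec2g and Clec4a4 among them, and with 3 mice a diet the calls depend on single libraries.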

Other observations

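Of 42 other genes with a C-type lectin domain, 40 were in the table and 30 were tested. In edgeR 2 rose and 1 fell on 6 mice, where 5.58% of all genes rose and 1.90% fell. Their median log2 difference was 0.54. Without NCD replicate 1, 6 of 33 rose and 2 fell, where 10.7% of all genes rose and 10.1% fell. Cd72, a receptor of B cells and macrophages, was at 6.15, 8.61 and 5.42 scaled CPM on NCD and 54.8, 40.8 and 52.6 on HFD (log2 difference 2.88, edgeR adjusted p = 0.0192). Mrc2, a collagen-uptake receptor of the mannose receptor family, was at 12.8, 20.2 and 17.2 scaled CPM on NCD and 167, 80.3 and 90.8 on HFD (log2 difference 2.75, edgeR adjusted p = 0.0219). In both the diets were far apart and HFD replicate 1 was the highest mouse. Chodl fell, with 2.8, 0.719 and 0.707 scaled CPM on NCD and 0, 0.036 and 0 on HFD (edgeR adjusted p = 0.0360). Its highest value was in NCD replicate 1, the library richest in seminal vesicle transcripts, which were almost absent from the HFD mice. Whether that admixed RNA carried the fall was not tested.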
